A study of Mus musculus with 17 samples.

Results

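An oligonucleotide directed at Malat1, given either as the conjugate OTV:Malat1 or as the free Malat1 ASO, was compared within each deposited cell label of the mouse posterior brain. The animals were chosen by their treatment label, which gave 7 of the 17 animals of the study: 3 that received OTV:Malat1 and 4 that received Malat1 ASO. All 17 animals, those compared here included, were female mice of the human TfR knock-in strain (hTfR KI HOM, carrying the allele on both chromosomes) and 2.3 months old. Each animal received 4 intravenous doses over 24 days, with tissue taken 72 hours after the final dose. The labels give the OTV:Malat1 dose as 50 mg/kg and the Malat1 ASO dose as 2 mg/kg, which the series design calls an ASO-equivalent dose. Saline (n = 4) and anti-TfR:Malat1 (n = 6) animals contributed to the estimate of spread between animals, and saline gives the untreated level.

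An antisense oligonucleotide (ASO) is a short, chemically modified strand that pairs with an RNA, and many are built so that RNase H1 cuts the paired RNA. Free ASOs cross the blood-brain barrier poorly after injection into blood. The transferrin receptor (TfR) carries iron-loaded transferrin into brain endothelial cells, and ligands that bind it can be carried across the vessel wall. An oligonucleotide transport vehicle (OTV) joins an ASO to an Fc engineered to bind human TfR. Malat1 is a long non-coding RNA held in nuclear speckles, which store splicing factors, and is among the most abundant transcripts of nuclei, so that its level can be read in single nuclei. In the GENCODE M21 annotation of GRCm38, the build named mm10 in the submitters' processing notes, Malat1 lies on chromosome 19 from 5795690 to 5802672 on the minus strand. Its main transcript there is a lincRNA of 6983 bases in a single exon (gene ENSMUSG00000092341.3).

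The measurements were unique molecular identifier (UMI) counts of nuclear RNA by gene. The 7 animals gave 117856 nuclei, 15098 to 18365 per animal, and 55393588 to 72127059 UMIs per animal. Counts were summed for each animal and cell label, and the share of all UMIs that came from Malat1 (the Malat1 share) was the level for each animal. Markers were checked by label, and some of the exceptions are given here and, for clusters labelled Neurons, with the clusters. CPM (counts per 1000000 UMIs) totals include Malat1, so a lower Malat1 share by itself raises the CPM of all other genes. Summed oligodendrocyte markers in oligodendrocytes were 18278 to 18851 CPM with OTV:Malat1 and 16745 to 18576 CPM with Malat1 ASO. Summed astrocyte markers in astrocytes were 17741 to 21396 CPM and 17753 to 19354 CPM, in the same order. Astrocytes also held oligodendrocyte precursor markers (means 3236 and 3160 CPM) and oligodendrocyte markers (means 1284 and 1127 CPM). Summed microglia markers in microglia were 7433 to 7703 CPM and 7403 to 7953 CPM. Microglia also held oligodendrocyte markers, at 1236 to 2519 CPM and 1192 to 1625 CPM. Perivascular macrophages held their own markers at means of 8343 and 7123 CPM. They also held oligodendrocyte markers (means 2926 and 2590 CPM) and microglia markers (means 3195 and 2955 CPM). The part of these other markers in the Malat1 values was not tested. Vascular cells held neuron markers (mean 2319 CPM with OTV:Malat1 and 1839 CPM with Malat1 ASO) about as high as mural ones (2642 and 1903 CPM). Oligodendrocyte markers in vascular cells were at means of 2119 CPM with OTV:Malat1 and 1577 CPM with Malat1 ASO, and their part in the Malat1 value was not tested. Each OTV:Malat1 animal shared a batch with a Malat1 ASO animal (batches 2, 3 and 4, the pairs OTV:Malat1 1 with ASO 2, 2 with 3 and 3 with 4), and ASO replicate 1 was alone in batch 1. Batch 4 had the lowest Malat1 share over all nuclei in both groups. Batch was a term in the fits unless said otherwise, and within-batch differences are given.

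The mean Malat1 share was lower after OTV:Malat1 than after Malat1 ASO in all 6 labels that could be fitted. The difference passed the adjusted test in 4 of them: oligodendrocytes, astrocytes, perivascular macrophages and microglia. The mean Malat1 share after OTV:Malat1 was 17.1% of that after Malat1 ASO in oligodendrocytes, 35.8% in astrocytes, 58.4% in perivascular macrophages and 62.8% in microglia. It was 69.3% in neurons and 86.7% in vascular cells, where the difference did not pass the adjusted test. In neurons the fitted log2 difference was still negative, -0.59 with a 95% interval of -0.88 to -0.30. A call in 1 label but not in another is no test of a difference between labels. Each label is compared with neurons below. The Malat1 ASO animals themselves were at 95.3% of the saline mean in oligodendrocytes, 95.9% in astrocytes, 99.9% in microglia, 98.5% in perivascular macrophages, 96.4% in neurons and 86.5% in vascular cells.

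**Figure D1:**
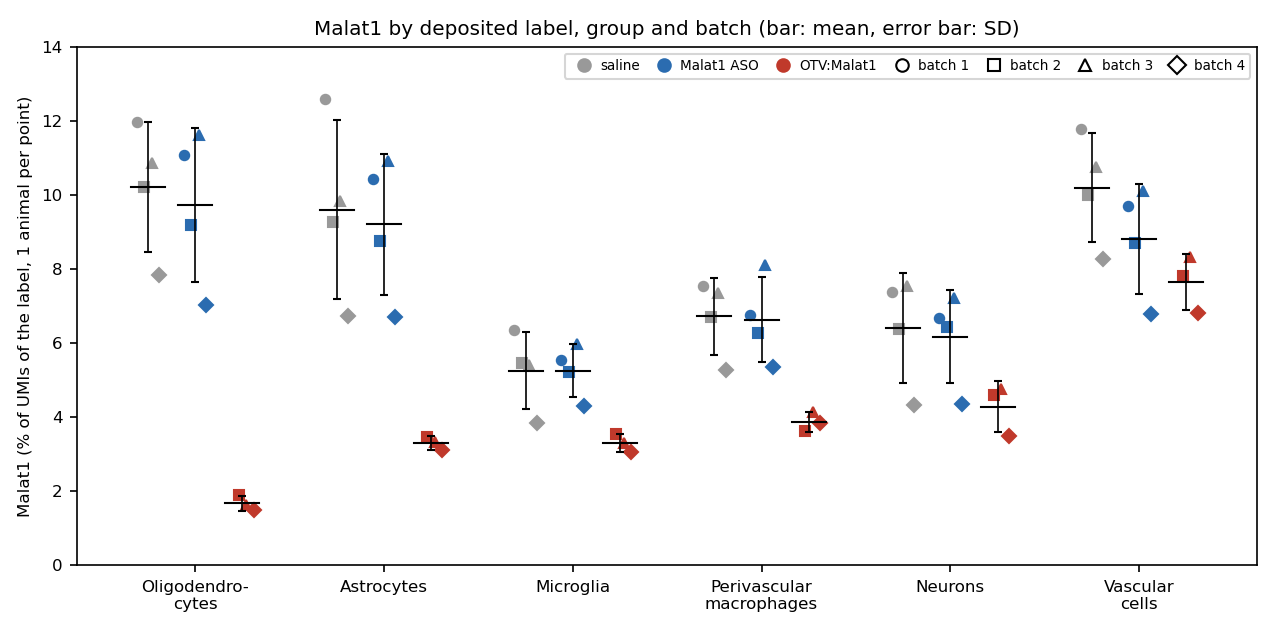
Malat1 share (percent of all UMIs, vertical axis) in each animal, by cell label, for saline, Malat1 ASO and OTV:Malat1; points are animals with 1 symbol per batch, bars are means and error bars are SD. The OTV:Malat1 points in oligodendrocytes sit between 1.5% and 1.90%, below every Malat1 ASO point there, and the groups overlap in neurons and vascular cells.

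Oligodendrocytes, the cells that wrap axons in myelin, showed the largest difference of the 6 labels. The Malat1 share was 1.90%, 1.61% and 1.5% in the 3 OTV:Malat1 animals (1.67% ± 0.20, SD, n = 3). It was 11.1%, 9.19%, 11.6% and 7.04% in the 4 Malat1 ASO animals (9.73% ± 2.08, SD, n = 4), and 10.2% ± 1.75 (SD, n = 4) with saline. All 3 OTV:Malat1 animals lay below all 4 Malat1 ASO animals, with a wide gap between the groups. The fitted log2 difference was -2.64 (SE 0.13, 95% interval -2.91 to -2.37, edgeR quasi-likelihood test, adjusted p = 7.3e-10). Within batches 2, 3 and 4 the log2 difference was -2.28, -2.85 and -2.23. These values rest on 4638, 5797 and 3758 oligodendrocyte nuclei with OTV:Malat1 and 3795 to 4868 with Malat1 ASO.

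Astrocytes, the glia whose endfeet cover brain vessels, had the next largest difference. Their Malat1 share was 3.47%, 3.33% and 3.10% after OTV:Malat1 (3.30% ± 0.19, SD, n = 3) and 10.4%, 8.76%, 10.9% and 6.71% after Malat1 ASO (9.21% ± 1.90, SD, n = 4). The groups did not overlap, and the fitted log2 difference was -1.51 (SE 0.14, 95% interval -1.79 to -1.23, edgeR, adjusted p = 2.8e-08). It was -1.34, -1.72 and -1.12 within the 3 batches. Each animal had 210 to 386 astrocyte nuclei, many fewer than oligodendrocytes.

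Microglia, the resident immune cells of the brain, held 3.55%, 3.29% and 3.06% Malat1 after OTV:Malat1 (3.30% ± 0.25, SD, n = 3). After Malat1 ASO the share was 5.55%, 5.2%, 5.97% and 4.29% (5.25% ± 0.72, SD, n = 4). The groups were separate, with a log2 difference of -0.67 (SE 0.09, 95% interval -0.85 to -0.50, edgeR, adjusted p = 1.3e-04), and -0.55, -0.86 and -0.49 within batches. Mean shares after OTV:Malat1 were the same to 2 decimals in astrocytes and microglia, while the Malat1 ASO level in microglia was lower than in astrocytes.

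Perivascular macrophages, which live in the spaces around vessels, held 3.62%, 4.14% and 3.85% Malat1 after OTV:Malat1 (3.87% ± 0.26, SD, n = 3). After Malat1 ASO they held 6.77%, 6.28%, 8.11% and 5.35% (6.63% ± 1.15, SD, n = 4), and the groups did not overlap. The log2 difference was -0.80 (SE 0.12, 95% interval -1.05 to -0.55, edgeR, adjusted p = 6.3e-04), from only 23 to 63 nuclei per animal. The direction held but the adjusted p was 0.0762 in edgeR without the batch term and 0.110 with the 7 animals alone. Without the nuclei that the authors marked as doublets the difference was -0.62 and stayed past the threshold (edgeR, adjusted p = 0.00438). In the 219 of their 249 nuclei that lay in cluster 11, the mean share after OTV:Malat1 was 69.6% of that after Malat1 ASO (4.06% against 5.83%), next to 67.7% for the microglia of that cluster, so the order of these labels rests on the nuclei outside it.

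Neurons did not separate in the same way. The Malat1 share was 4.58%, 4.76% and 3.49% after OTV:Malat1 (4.28% ± 0.68, SD, n = 3) against 6.67%, 6.44%, 7.21% and 4.35% after Malat1 ASO (6.17% ± 1.25, SD, n = 4). Only OTV:Malat1 replicate 3 lay below all of the Malat1 ASO animals, since ASO replicate 4 was at 4.35%. The log2 difference was -0.59 (SE 0.14, 95% interval -0.88 to -0.30) with an unadjusted p of 5.0e-04 and an adjusted p of 0.997 over 20906 genes in edgeR. Within batches it was -0.49, -0.60 and -0.32, lower with OTV:Malat1 in each pair.

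Vascular cells, the label that holds endothelial, mural and fibroblast-like nuclei, had a Malat1 share of 7.80%, 8.33% and 6.82% after OTV:Malat1 (7.65% ± 0.77, SD, n = 3). After Malat1 ASO it was 9.69%, 8.71%, 10.1% and 6.78% (8.82% ± 1.49, SD, n = 4). With saline it was 10.2% ± 1.48 (SD, n = 4). The OTV:Malat1 and Malat1 ASO groups overlapped. The log2 difference was -0.12 (SE 0.14, 95% interval -0.42 to 0.18, edgeR, adjusted p = 0.985), with -0.16, -0.28 and 0.01 within batches. The interval excludes a fall as large as the fitted one in microglia (-0.67). The value was -0.07 without ASO replicate 2, -0.19 without ASO replicate 4 and 0.0100 without the authors' doublets. Marker levels in the label also varied between animals. Summed oligodendrocyte precursor markers in it were 627 to 845 CPM with OTV:Malat1 and 367 to 485 CPM with Malat1 ASO, without overlap. Summed blood markers were 17.5 to 4638 CPM (mean 1570) with OTV:Malat1 and 14.7 to 32.9 CPM (mean 20.5) with Malat1 ASO. Mural markers, at 1999 to 3539 CPM and 1455 to 2395 CPM, and fibroblast-like markers, at 1908 to 2403 CPM and 1916 to 3592 CPM, overlapped between the groups. The part of this makeup in the Malat1 value was not tested.

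Vascular nuclei were then placed by the leading marker list among endothelial, mural and fibroblast-like genes, a split chosen after the data were seen. Nuclei in which no list led alone (6, 1 and 3 in the OTV:Malat1 animals and 1, 2, 3 and 1 in the Malat1 ASO animals) were left out. Endothelial nuclei, which line the vessels and carry TfR, had Malat1 shares of 3.63%, 4.41% and 3.78% after OTV:Malat1 (3.94% ± 0.42, SD, 34 nuclei in 3 animals) and 5.33%, 4.36%, 6.48% and 4.28% after Malat1 ASO (5.11% ± 1.03, SD, 39 nuclei in 4 animals). The log2 difference was -0.36 (2-sided exact permutation p = 0.171, 0.257 adjusted over the 3 lists). Mural nuclei (pericytes and smooth muscle) were at 9.71% ± 0.78 (SD, 71 nuclei) and 11.2% ± 1.37 (SD, 87 nuclei), a log2 difference of -0.20 (exact permutation p = 0.171). Fibroblast-like nuclei were at 7.91% ± 0.97 (SD, 94 nuclei) and 8.59% ± 1.68 (SD, 143 nuclei), a log2 difference of -0.10 (exact permutation p = 0.629). Within batches the log2 difference was -0.27, -0.55 and -0.18 in endothelial nuclei, -0.17, -0.30 and -0.09 in mural nuclei and 0.01, -0.26 and 0.10 in fibroblast-like nuclei. The permutation does not use the batches, and the few nuclei limit each value.

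Permuting the animals gave the same picture at the limit of this design, in which 3 against 4 animals allow 35 regroupings and no exact p below 0.0571. That smallest value was reached in oligodendrocytes, astrocytes, microglia and perivascular macrophages (2-sided exact permutation test, 0.0857 adjusted over 6 labels). It was 0.171 in neurons and 0.286 in vascular cells (exact permutation test, 0.206 and 0.286 adjusted).

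To test whether the labels differed from each other, the log2 Malat1 share of each label was set against that of neurons from the same animal. Relative to neurons, OTV:Malat1 was lower than Malat1 ASO by a log2 difference of -2.01 in oligodendrocytes and -0.94 in astrocytes, each without overlap (exact permutation p = 0.0571, 0.0952 adjusted over 5 labels). Within batches these were -1.79, -2.25 and -1.92 in oligodendrocytes and -0.84, -1.12 and -0.80 in astrocytes. Vascular cells went the other way, with a difference from neurons of 0.32 (exact permutation p = 0.0571, 0.0952 adjusted) and 0.33, 0.32 and 0.33 within batches. Microglia were at -0.15 (exact permutation p = 0.343), with -0.06, -0.26 and -0.17 within batches, and perivascular macrophages at -0.25 (exact permutation p = 0.171), with -0.30, -0.37 and -0.16. The permutation does not use the batches, and in both labels each within-batch difference was negative. Leaving out each animal in turn gave -0.23 to -0.06 in microglia and -0.38 to -0.14 in perivascular macrophages. Alternatives of the processing gave -0.26 to -0.05 in microglia and -0.25 to -0.09 in perivascular macrophages. The size of both therefore depends on single animals and on the processing.

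The same contrast was read in single nuclei after each was thinned to 500 UMIs, which gave every nucleus the same depth. A nucleus was called low when its Malat1 UMIs fell below the 10th percentile of saline nuclei of its label. In oligodendrocytes this limit was 32 UMIs, and 98.6%, 98.7% and 99.5% of nuclei were low after OTV:Malat1. After Malat1 ASO 2.75%, 10.9%, 1.97% and 37.1% were low, with ASO replicate 4 of batch 4 the highest. Saline replicate 4 of that batch was itself at 26.9%, and the other saline animals were at 1.39% to 5.63%. The same saline animal was at 26.6% in astrocytes, 28.5% in microglia and 24.7% in neurons, above every other saline animal. The limit was set over all batches, so low shares of batch 4 animals are to be read against saline of that batch. The median oligodendrocyte nucleus had 7, 5 and 6 Malat1 UMIs of 500 in the OTV:Malat1 animals and 54, 44, 56 and 34 in the Malat1 ASO animals. Nearly all oligodendrocyte nuclei therefore lay under the limit in each OTV:Malat1 animal.

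Astrocytes were spread more widely. Low astrocytes (under 27 of 500 UMIs) made up 81.4%, 81.0% and 87.6% after OTV:Malat1 and 1.55%, 5.28%, 2.38% and 23.1% after Malat1 ASO, with medians of 17, 14 and 13 UMIs against 54, 44, 54.5 and 33. Low microglia (under 16 UMIs) made up 31.5%, 44.3% and 48.3% against 2.88%, 5.39%, 1.92% and 12.9%. The microglia difference of 35.6 percentage points was 21.2 at the 5th and 48.7 at the 25th percentile of saline nuclei, with the groups apart in both. Low perivascular macrophages (under 20 UMIs) made up 65.6%, 55.6% and 48.4% against 17.6%, 21.4%, 7.89% and 21.7%.

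In neurons (under 15 UMIs) 25.6%, 25.4% and 41.6% of nuclei were low after OTV:Malat1 against 4.72%, 6.58%, 3.15% and 21.5% after Malat1 ASO, so that the groups did not overlap in this measure although they did in the Malat1 share. The exact permutation p was 0.0571 in each of these 5 labels (0.0686 adjusted over 6). At 1000 UMIs per nucleus, which leaves out shallower nuclei, the neurons overlapped (exact permutation p = 0.114) with means of 30.7% and 9.70%. The neuron differences within batches at that depth were 18.2, 21.9 and 17.4 percentage points. Vascular cells overlapped at 500 UMIs: 29.3%, 26.4% and 29.1% were low after OTV:Malat1 and 11.6%, 15.3%, 14.1% and 45.3% after Malat1 ASO (exact permutation p = 0.686). At 1000 UMIs only 2 OTV:Malat1 animals had enough vascular nuclei, with no pair in batch 4.

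**Figure D2:**
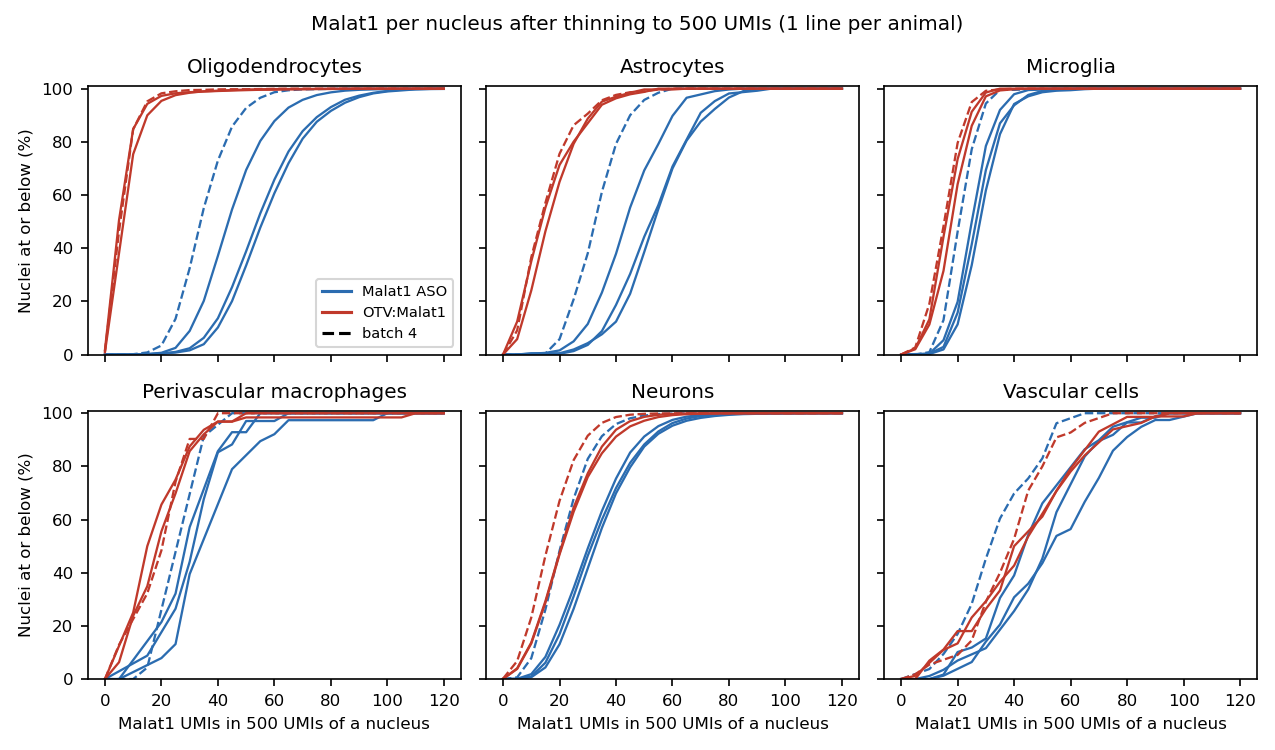
Cumulative percent of nuclei (vertical axis) at or below each number of Malat1 UMIs out of 500 (horizontal axis), by cell label; each line is 1 animal of the OTV:Malat1 or Malat1 ASO group. In oligodendrocytes the OTV:Malat1 lines reach their median at 5 to 7 UMIs and the Malat1 ASO lines at 34 to 56, and in vascular cells the lines of the groups overlap.

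The authors' deposited clusters divide the labels further, and their Malat1 shares are a description only, because the genes that formed the clusters may include Malat1. Clusters 0, 2 and 15, which held the bulk of the oligodendrocyte label and expressed Mog, a late myelin surface protein, at 1440, 1355 and 1533 CPM, were alike. Among oligodendrocyte-labelled nuclei the Malat1 share after OTV:Malat1 was 14%, 13.5% and 16% of that after Malat1 ASO in these 3 clusters. The first pair held 45.8% and 44.4% of the label with OTV:Malat1 and 47.6% and 41.8% with Malat1 ASO, so the makeup of the label was close in both groups.

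Clusters with markers of earlier oligodendrocyte stages stood closer to the Malat1 ASO level. Cluster 13, called oligodendrocyte precursor-like from its summed precursor markers of 18857 CPM (Pdgfra, the precursors' growth factor receptor, 616 CPM; Vcan, a matrix proteoglycan, 1265 CPM), kept 83.6% of the Malat1 ASO level (4.45% ± 0.50 against 5.32% ± 1.1). Most of its nuclei (3202 of 3383) carry the deposited label Neurons, which goes against these markers. The 175 nuclei of that cluster labelled oligodendrocytes kept 80.7%, with Pdgfra at 580 CPM and Mbp, the myelin basic protein, at 47.9 CPM. Oligodendrocyte-labelled nuclei of cluster 17 (483 nuclei, of which the authors marked 46.0% as doublets) kept 84.7%. Their Malat1 share was 6.01% to 8.24% after OTV:Malat1 and 5.71% to 9.35% after Malat1 ASO, which overlap. They expressed Bmp4, a marker of newly formed oligodendrocytes, at 198 CPM, Mbp at 4111 CPM and Mog at 298 CPM. Cluster 17 as a whole was at 74.8% of the Malat1 ASO level. Its 796 neuron-labelled nuclei (97.1% doublets by the authors' call) were at 68.6%. Of all nuclei of cluster 17, 61.2% carry the label Neurons, with summed precursor markers of 8174 CPM and neuron markers of 7357 CPM. Cluster 19, also most often labelled Neurons, had 13054 CPM and 1778 CPM, in the same order. It had too few nuclei per animal for a Malat1 comparison.

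Other clusters ranged widely. Cluster 14, which held 96.6% of the OTV:Malat1 astrocytes, was at 35.1% of the Malat1 ASO level in its astrocyte-labelled nuclei, 65.8% in its neuron-labelled nuclei and 88.0% in its vascular-labelled nuclei. Among 2619 neuron-labelled nuclei of the oligodendrocyte cluster 2 the value was 17.7%, near that of the oligodendrocytes of that cluster and below the 69.3% of the neuron label as a whole. Clusters 10 and 16, with Drd2 (a dopamine receptor) at 97.1 CPM and Gabra6 (a cerebellar granule cell receptor subunit) at 449 CPM, were at 83.4% and 87.5%. Cluster 16 was the highest of the clusters mostly labelled Neurons, and cluster 4 the lowest at 60.9%. In cluster 4 the Malat1 share was at most 3.67% after OTV:Malat1 and at least 3.72% after Malat1 ASO. Clusters 3 and 6 were at 64.1% and 65.8%. Doublets by the authors' call made up 48.8% of neuron-labelled nuclei in cluster 4, 65.2% in cluster 6 and 57.0% in cluster 14. They made up 26.4% in cluster 10, 12.9% in cluster 3 and 2.60% in cluster 16. The part of doublets in the order of these clusters was not tested.

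**Figure D3:**
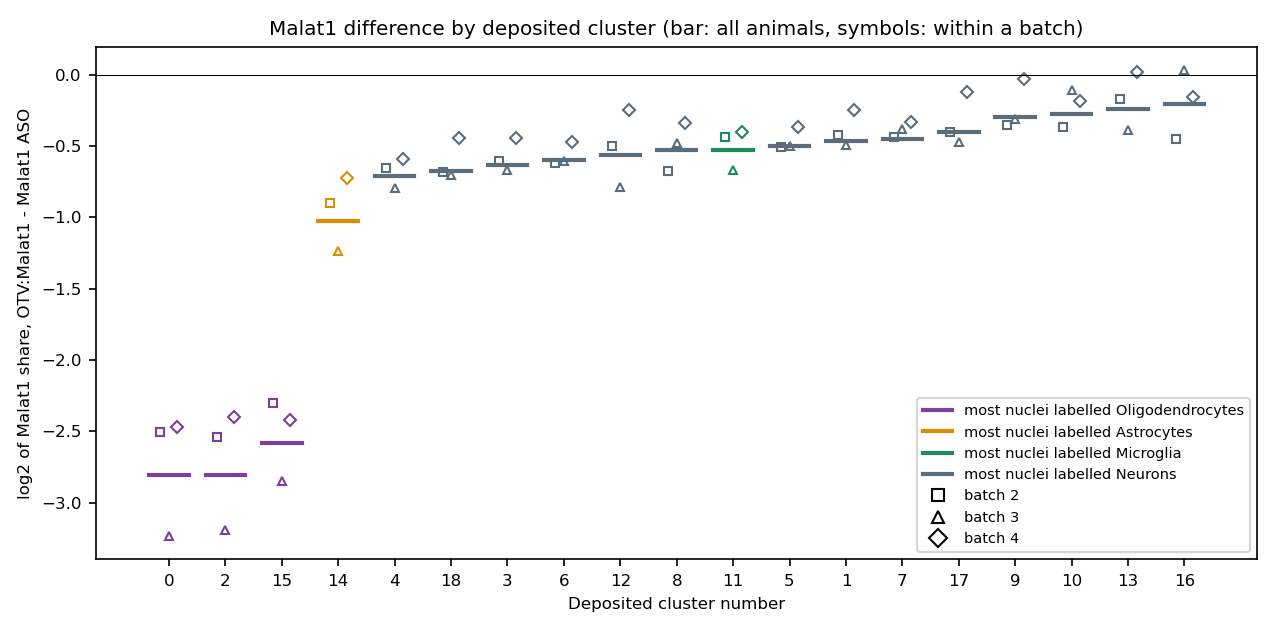
Log2 difference in Malat1 share, OTV:Malat1 minus Malat1 ASO (vertical axis), for each deposited cluster (horizontal axis); bars are over all animals and symbols are differences within a batch. Clusters 0, 2 and 15 stand at -2.81, -2.81 and -2.58, and the precursor-like cluster 13 stands at -0.24.

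Outside Malat1, 1 gene in 1 label passed the threshold with all 17 animals in the edgeR fit. In oligodendrocytes Malat1 was the only gene of 14419 tested that passed the threshold (0.00694% of genes called at an edgeR adjusted p below 0.05). An unadjusted p below 0.05 was found for 628 others (4.36% of genes with Malat1 included), and DESeq2 called 1, Wwox, with 400 at an unadjusted p below 0.05. Intervals for 88.0% of the other genes lay within a 2-fold change in both directions. Of all genes, 12.4% did not overlap between the groups in CPM, and 4.10% of the other genes did not once Malat1, which is part of each CPM total, was left out of the totals.

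Slc35f2, a solute carrier, had the smallest adjusted p of the other genes in oligodendrocytes. It was at 0.697, 1.16 and 0.971 CPM after OTV:Malat1 and 3.34, 2.82, 2.96 and 2.47 CPM after Malat1 ASO, low in both groups (log2 difference -1.77, SE 0.30, edgeR adjusted p = 0.0968). It passed with no batch term (edgeR adjusted p = 0.0447) and with no filter on low counts (0.0468). It also passed with majority labels, in which only nuclei carrying the most common label of their cluster were kept (edgeR adjusted p = 0.0391). Wwox, a WW domain oxidoreductase, was at 416, 328 and 414 CPM against 475, 545, 420 and 480 CPM (log2 difference -0.47, edgeR adjusted p = 0.280, DESeq2 adjusted p = 0.0162). Its groups were separated by a narrow gap. Lrrc17 was the only gene with a more negative value than Malat1 (log2 difference -2.97, SE 0.61, edgeR adjusted p = 0.407), at under 3 CPM in each animal. Nhp2, of the small nucleolar RNA complexes, had 0.92, and Bud31, a splicing factor, 0.50, with an edgeR adjusted p of 0.934 for the latter.

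In astrocytes Malat1 was again the only gene called of 8547 (0.0117%) with all 17 animals in the fit, with 384 others at an unadjusted p below 0.05 in edgeR (4.5% with Malat1) and 0 others called by DESeq2 (149 at an unadjusted p below 0.05). Thbs4, a secreted thrombospondin, was at 17.6, 21.4 and 36.2 CPM after OTV:Malat1 and 40.3, 68.0, 51.8 and 49.3 CPM after Malat1 ASO (log2 difference -1.46, edgeR adjusted p = 0.256). Thbs4 passed in edgeR with the 7 animals alone (adjusted p = 0.0183), with no filter on low counts (0.0029), in nuclei of at least 1000 UMIs (0.0037), with batch 4 left out (0.0387) and without OTV:Malat1 replicate 3 (0.0275). With the 7 animals alone edgeR called 17 genes other than Malat1, 3 higher and 14 lower, and with no filter 10. Adamts18 had a log2 difference of -3.0 (edgeR adjusted p = 0.474, and 0.0011 with no filter), Fez1 0.67 and Disp1, which releases hedgehog ligands, 0.86. For Fez1 and Disp1 the groups overlapped once Malat1 was left out of the CPM totals. Intervals for 78.6% of the other genes lay within a 2-fold change.

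In microglia Malat1 was the only gene called of 9104 (0.011%) with all 17 animals in the fit, with 490 others at an unadjusted p below 0.05 in edgeR (5.39% with Malat1) and 0 others called by DESeq2 (170 at an unadjusted p below 0.05). Adap1 (log2 difference 1.19, edgeR adjusted p = 0.824), Dhx33 (1.19), Galnt12 (-0.94) and P3h2 (-0.49) had the smallest p in their direction among genes without overlap and did not pass. Adap1 and P3h2 passed with the 7 animals alone (edgeR adjusted p = 0.0471 and 0.0080), and P3h2 with no filter (0.0103). With the 7 animals alone edgeR called 47 genes other than Malat1, 18 higher and 29 lower, and with no filter 12. Intervals within a 2-fold change were found for 73.6% of the others.

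In perivascular macrophages Kcnip4 was called beside Malat1, 2 of 1418 genes (0.141%), with 85 genes other than Malat1 at an unadjusted edgeR p below 0.05 (6.06% with Malat1). DESeq2 called 1 gene other than Malat1, with 42 at an unadjusted p below 0.05. Kcnip4 encodes a potassium channel partner that is abundant in neurons, and its level in the neuron label was 8491 to 9127 CPM with OTV:Malat1 and 7442 to 9641 CPM with Malat1 ASO. In the macrophages it was 371, 113 and 202 CPM after OTV:Malat1 and 1412, 525, 2151 and 802 CPM after Malat1 ASO, without overlap, as for 6.42% of genes there (log2 difference -2.5, SE 0.48, edgeR adjusted p = 0.0122). Without the doublets it was -1.11 (edgeR adjusted p = 0.439). The call was also lost without OTV:Malat1 replicate 2 (-1.56, edgeR adjusted p = 0.792), OTV:Malat1 replicate 3 (-2.57, 0.0620) or ASO replicate 3 (-1.81, 0.278). Summed neuron markers in these macrophages were 1297 to 1570 CPM with OTV:Malat1 and 1214 to 3011 CPM with Malat1 ASO, and their part in the Kcnip4 value was not tested. Kcnb2, another channel gene, was at 0 in all 3 OTV:Malat1 animals and at 323, 32.8, 332 and 141 CPM in the Malat1 ASO animals (edgeR adjusted p = 0.136, and 2.9e-04 with no filter on low counts). Of the genes higher after OTV:Malat1, the transcription factor Creb5 was at 309, 389 and 202 CPM against 20.2, 131, 78.2 and 141 CPM (log2 difference 1.87, edgeR adjusted p = 0.416). Wipf1, an actin regulator, was at 525, 590 and 573 CPM against 323, 361, 332 and 189 CPM (0.85, edgeR adjusted p = 0.552).

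In neurons no gene of 20906 was called (0%), with 502 genes other than Malat1 at an unadjusted p below 0.05 in edgeR (2.41% with Malat1), and 0 called by DESeq2 (405 at an unadjusted p below 0.05). The interval lay within a 2-fold change for 90.1% of these genes. Rgs20, a regulator of G protein signals, had a log2 difference of -0.36 and Efna5, an axon guidance ligand, -0.28, while the predicted genes Gm34829 and Gm13713, at about 1 CPM or less, had 1.04 and 0.66. In vascular cells no gene of 3312 was called (0%), with 169 at an unadjusted p below 0.05 in edgeR (5.1%) and 0 called by DESeq2 (91 at an unadjusted p below 0.05). Only 39.3% of vascular intervals lay within a 2-fold change, so larger changes could have been missed there. Lhfpl3, a gene of oligodendrocyte precursors, had 2.15 and Csrp2 -2.15, neither past the threshold except with no filter on low counts (edgeR adjusted p = 0.0073 and 0.0197). Unc13c, a synaptic vesicle priming gene, had 0.95 and the transcription factor Mef2a -0.97, both at an edgeR adjusted p of 0.760.

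**Figure D4:**
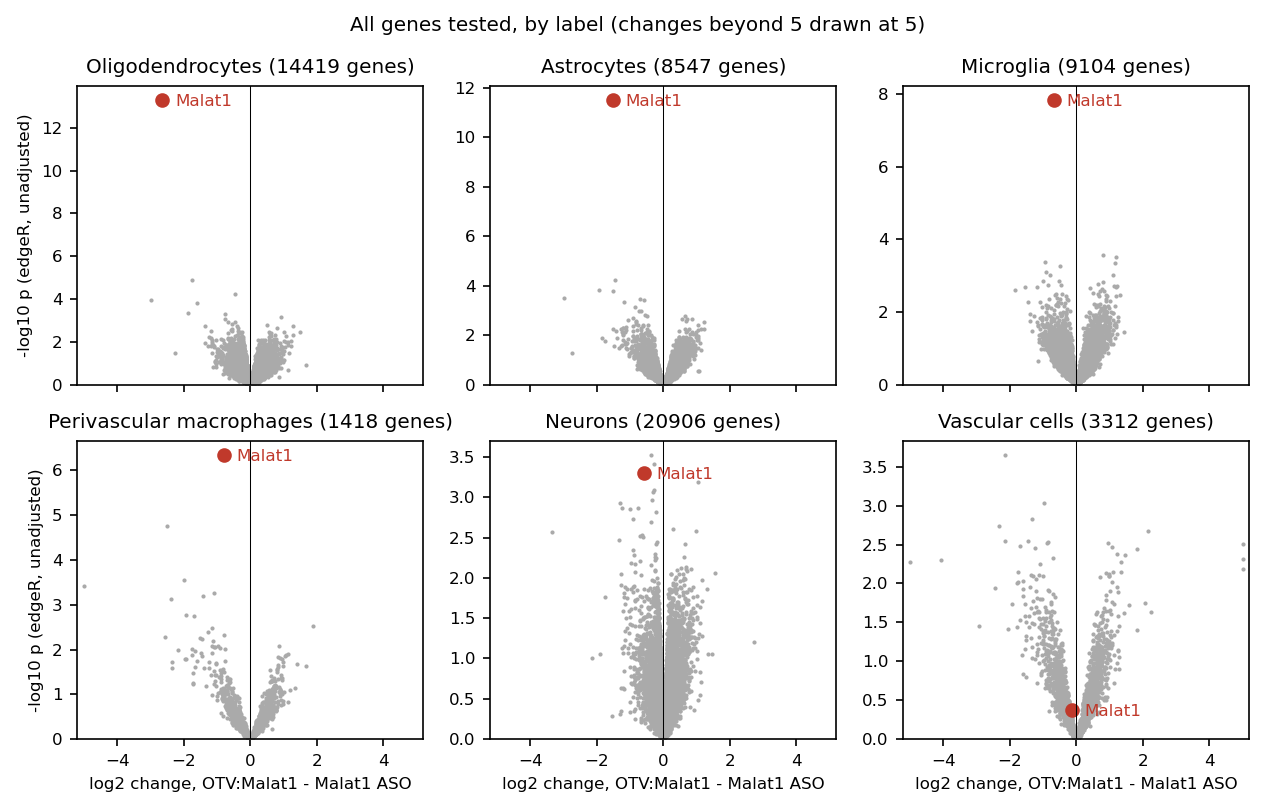
Log2 difference of OTV:Malat1 minus Malat1 ASO for all genes tested (horizontal axis, drawn up to 5 in size) against the -log10 of the unadjusted edgeR p (vertical axis), by cell label; each grey point is a gene and Malat1 is in red. Malat1 stands alone at the top in oligodendrocytes, at a log2 difference of -2.64, and within the cloud of genes in vascular cells.

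Gene lists that bear on the drug, its target and the cells were described by their counts. None of the 19 lists had a member past the threshold in any of the 7 fits (286 list entries tested in the labels the lists belong to). Since 0.00694% of all genes were called in oligodendrocytes, Malat1 itself, and 0% in neurons, these counts of 0 equal the background and single out no list. In oligodendrocytes the median log2 difference of all other genes was 0.02, and list medians ran from -0.19 to 0.12.

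Genes closest to the target did not pass. Of 18 neighbours of Malat1 on its chromosome, 16 were tested in oligodendrocytes, 0 were called, and their median was 0.09. Among them Pola2, a DNA polymerase subunit, had 0.57 and Fam89b 0.34. Neat1, the neighbouring long non-coding RNA that scaffolds paraspeckles, was at 1415, 1371 and 1176 CPM after OTV:Malat1 and 975, 1226, 983 and 1032 CPM after Malat1 ASO, with some overlap (log2 difference 0.13, 95% interval -0.11 to 0.37). The speckle and splicing list (24 tested) had a median of -0.03, with Srsf6, a serine-rich splicing factor, at -0.37 and Ptbp2, a splicing repressor, at -0.17. Nuclear long non-coding RNAs other than Malat1 (15 tested) had a median of -0.15, with Snhg14 of the Prader-Willi region at -0.52 and Mirg of the Dlk1-Dio3 region at -0.54.

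Genes of the route into the cell and of oligonucleotide handling gave like values. RNase H and RNA decay genes (16 tested) had a median of -0.00, endocytosis and sorting genes (23 tested) 0.03 and iron genes (12 of 18 tested) -0.04. Tfrc, the mouse transferrin receptor gene, had a log2 difference of -0.35 in oligodendrocytes (95% interval -0.76 to 0.07). Ftl1, a ferritin chain, had 0.24, Vps35 and Snx27 of the retromer had -0.18 and -0.15, and of RNA decay the helicase Dhx36 had 0.19 (95% interval 0.03 to 0.34, edgeR adjusted p = 0.934) and Nrde2 0.27.

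Lists that read a response to foreign nucleic acid or to stress also had 0 members past the threshold. Interferon-stimulated genes (9 of 22 tested) had a median of -0.00, with Ifit2 at 0.30 and Ddx58, which encodes the RNA sensor RIG-I, at -0.23. Nucleic acid sensors (7 of 15 tested) had a median of 0.03, with the DNA sensor Aim2 at -0.18 and the Toll-like receptor chaperone Unc93b1 at -0.11. The p53 list (13 tested) had -0.02, with Bbc3 at 0.51 and Sesn2 at -0.42, and the heat shock and unfolded protein list (14 tested) 0.09, with the chaperone Hspa5 at 0.23 and the stress transcription factor Ddit3 at 0.21. Of the 2 lists that read nucleic acids, the members not tested were too low, and nothing can be said of those. Glucocorticoid-induced genes (15 tested) had the lowest median, -0.19, with Tsc22d3 at -0.25 and Fkbp5 at -0.63. The Fkbp5 value turned to 0.10 without ASO replicate 2, whose level was 89.1 CPM.

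Lists of cell identity are given next. All 21 myelin genes were tested in oligodendrocytes, with a median of 0.00 and 0 called, as for the other genes there. Cldn11, the tight junction protein of myelin, had -0.16 and Myrf, the transcription factor that drives myelin genes, -0.13. Oligodendrocyte state genes (18 tested) had a median of -0.01, with the glutamate receptor Grm3 at -0.17 and Anxa5 at 0.32. Cholesterol synthesis genes (19 tested) had a median of 0.08, with Hmgcs1, an early enzyme of the pathway, at 0.21. Astrocyte identity genes (20 tested in astrocytes) had a median of 0.02, with the water channel Aqp4 at 0.32 and Apoe at -0.23. Only 2 of 20 reactive glia genes were tested there, Gfap, the filament raised in reactive astrocytes, at 0.15 and Stat3 at -0.19. Homeostatic microglia genes (15 tested in microglia) had a median of -0.09, with the engulfment receptor Mertk at -0.24 and the purine receptor P2ry13 at 0.62. Activation and Fc receptor genes (9 of 18 tested) had a median of 0.12, with the lipid carrier Apoe at 0.26. Fcgr3, an Fc gamma receptor, ran against that median at -0.44 (95% interval -0.87 to -0.01, edgeR adjusted p = 0.891). Immediate early genes (18 tested in neurons) had a median of -0.03, with the transcription factors Jun and Jund both at 0.26. Outside oligodendrocytes the myelin list had a median of 0.34 in microglia (17 tested) and 0.39 in vascular cells (9 tested), with 0 called. In microglia 5 of these 17 were higher at an unadjusted edgeR p below 0.05, against 261 of 9103 genes other than Malat1. The part of such RNA in the Malat1 values of these labels was not tested.

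**Figure D5:**
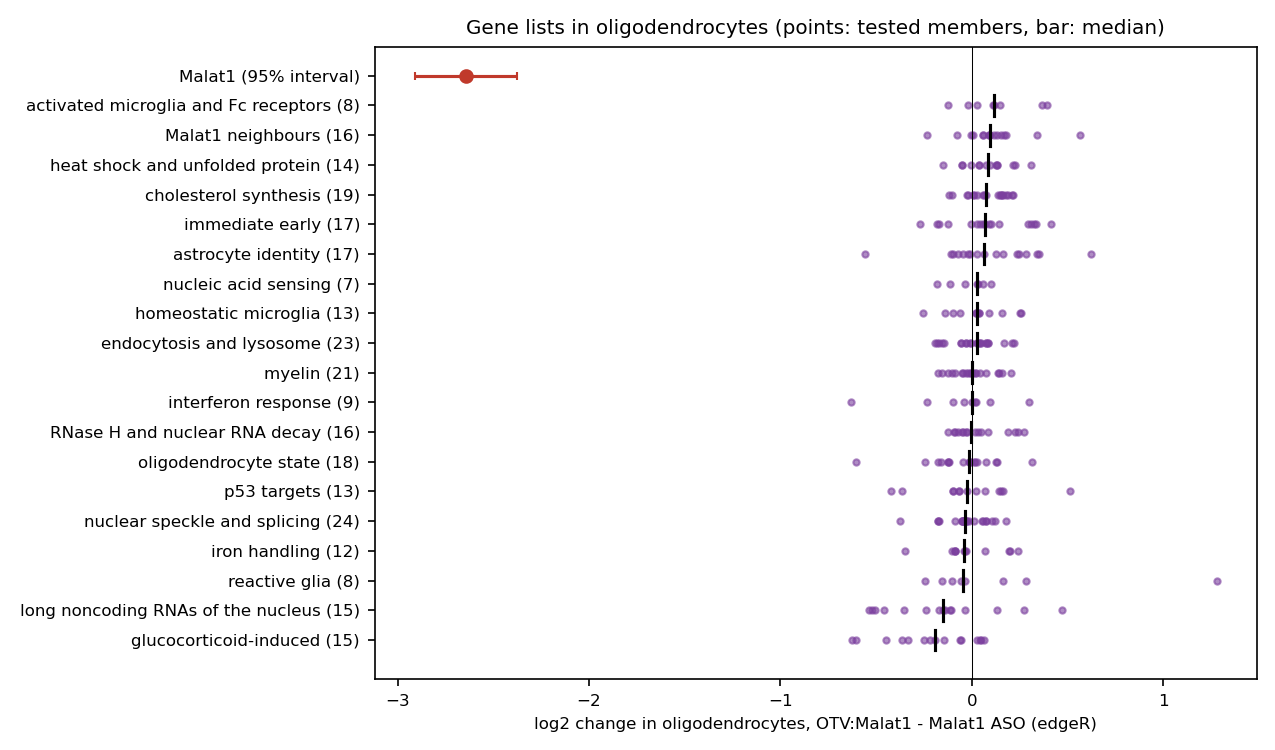
Log2 difference of OTV:Malat1 minus Malat1 ASO in oligodendrocytes (horizontal axis) for the members of each gene list (vertical axis); points are genes and bars are list medians. List medians lie between -0.19 and 0.12, against 0.02 for all other genes.

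Label shares were compared by an exact permutation test, which cannot go below 0.0571 here. Oligodendrocytes made up 27.0% ± 4.45 of nuclei after OTV:Malat1 (SD, n = 3) and 26.1% ± 4.46 after Malat1 ASO (SD, n = 4), and neurons 68.0% ± 4.80 and 68.1% ± 5.64. Microglia were at 2.5% ± 0.20 and 3.27% ± 0.51, without overlap (exact permutation p = 0.0571, 0.40 adjusted over the labels), and -0.85, -0.32 and -0.51 percentage points within batches. The batch 3 pair differed by -9.89 percentage points for neurons and 9.42 for oligodendrocytes, OTV:Malat1 minus Malat1 ASO.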

How the data were processed

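UMI counts were deposited by the authors as 1 matrix of 26131 genes and 284074 nuclei (1099241149 UMIs), all with at least 500 UMIs. The authors' deposited table of nuclei gave the animal, batch, cluster, doublet call, cell label and a prediction score, a fraction that was not used; 10 of its columns were not used. Cell Ranger 6.0.1, Seurat 4 and mm10 are named per the submitters' processing notes. How doublets were called, what a batch stands for and the label reference are not given in the sources used here. Doublets (47758 nuclei, 16.8%) were kept. Of 273792 distinct barcodes, 10044 occurred in 2 or more libraries, 62 to 98 for any 2 of the 7 animals compared. The labels number the replicates as separate animals.

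UMIs were summed per animal and label, and animals with at least 20 nuclei of a label were used, which were all 17 in each label fitted. The vascular split used animals with at least 5 nuclei of a list. edgeR 4.0.16 (R 4.3.3; filterByExpr, TMM, quasi-likelihood test) was fitted on all 17 animals with group and batch as terms, and p-values were adjusted by Benjamini-Hochberg over all genes of a label, with a threshold of 0.05. Standard errors are the log2 difference divided by the square root of F, and 95% intervals use edgeR's degrees of freedom; they cover the spread between animals. On simulated counts, with 100 genes changed at each fold, the fit recovered 82% of 2-fold and 98% of 4-fold changes in oligodendrocytes (14419 genes). It recovered 61% and 92% in microglia (9104) and 27% and 88% in perivascular macrophages (1418), with 3, 9 and 5 false calls in the 3 labels. The simulation had no batch differences and many more changed genes than were called here, so these rates do not give the power in these data. Exact permutation tests were 2-sided. They used log2(CPM + 1) of Malat1 for its level by label and for its difference from neurons. For low nuclei they used the percent of low nuclei per animal, and for label shares the percent of nuclei. Same-group libraries differed by more than counting noise (chi-square per degree of freedom 18.9 to 71.9). Glia (92 nuclei in the 7 animals) were not fitted. Python 3.11.15 and DESeq2 1.42.0 were also used.

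Genes were named by rule: Malat1, Neat1 and Tfrc, genes past the threshold, the 2 genes in each direction and label with the smallest p among those whose groups did not overlap in CPM, and the 2 members of each list with the smallest p. The comparison, the lists and this rule were chosen with earlier results of these data known. Genes or splits outside the rule (Lrrc17, Mbp, Mog, Pdgfra, Vcan, Bmp4, Drd2, Gabra6, Kcnip4 in neurons, the vascular split, the clusters) were chosen after their values were seen. The alternatives varied the normalization, filter, batch term, animals, tool, doublets, minimum UMIs, label rule, thinning depth and the percentile of saline nuclei (5 or 25 in place of 10). Nuclear genes with near-identical copies or overlapping partners may share reads. No oligonucleotide sequence is printed. A gene that the rule names is not reported here.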

Additional observations from a re-analysis of the deposited data

Results flagged for a closer look

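Over 95 measures checked in the 4 Malat1 ASO animals, 5 had 1 animal that stood apart by Dixon's ratio (its gap to the nearest animal over the group's range, at the 95% limit), a share that chance gives in about 1 of 20 cases. The 3 OTV:Malat1 animals are too few for this check, and it was not run on the other groups. In vascular cells the percent of low-Malat1 nuclei had a ratio of 0.892, with replicate 4 at 45.3% and the others at 11.6% to 15.3%. Tfrc in neurons had a ratio of 0.838, with replicate 3 at 19.5 CPM and the others at 24.0 to 24.9 CPM. Lhfpl3 in vascular cells had a ratio of 0.935, with replicate 1 at 115 CPM, and Csrp2 there had a ratio of 0.940, with replicate 2 at 323 CPM. Fkbp5 in oligodendrocytes had a ratio of 0.887, with replicate 2 at 89.1 CPM.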

How the results depend on the processing

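Malat1 kept its direction under every alternative that could be fitted in oligodendrocytes (-2.92 to -2.48), astrocytes (-1.68 to -1.38), microglia (-0.81 to -0.57) and perivascular macrophages (-0.95 to -0.62), and its call in the first 3. In neurons it was -0.68 to -0.50 and never called. In perivascular macrophages the call was lost with no batch term (-0.85) and with the 7 animals alone (-0.79). Over all nuclei DESeq2 called it (-0.77, adjusted p = 2.6e-04), and in vascular cells it was 0.0100 without doublets. The cause was not tested in any of these.

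With the 7 animals alone, genes other than Malat1 called were 17 in astrocytes (14 lower), 47 in microglia (29 lower) and 6 in perivascular macrophages. Of these, 15, 37 and 6 had an unadjusted edgeR p below 0.05 with 17 animals, and 0, 0 and 1 were called there. The 7 animals are part of the 17, so this is no independent check. The groups did not overlap in CPM for 1, 4 and 1 of these genes. Among all other genes tested with 17 animals this held for 518 of 8546, 521 of 9103 and 90 of 1417. With the 7 animals alone the median of edgeR's total degrees of freedom, prior included, was 140 in astrocytes against 30.8 with 17 animals. Oligodendrocytes and vascular cells had 0 calls other than Malat1 with the 7 animals alone. With no filter there were 10 in astrocytes, 12 in microglia, 5 in oligodendrocytes, 4 in perivascular macrophages and 20 in vascular cells. With at least 1000 UMIs there were 1 in astrocytes and 3 in vascular cells, and with batch 4 left out (added after seeing the data) 1 in astrocytes and 2 in perivascular macrophages. In oligodendrocytes there was 1 with no batch term, 1 with DESeq2 and 1 with majority labels. Without doublets there were 3 in perivascular macrophages. Leaving out each animal gave 0 to 1 in astrocytes, 0 to 2 in perivascular macrophages and 0 to 4 in vascular cells.

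Replicate numbers did not pair animals: same-number correlations were -0.23, -0.15 and -0.28 over all nuclei, and same-batch ones 0.29, 0.20 and 0.33. With a replicate block in place of batch Malat1 was -2.78 in oligodendrocytes, -1.67 in astrocytes, -0.76 in microglia, -0.89 in perivascular macrophages, -0.65 in neurons and -0.22 in vascular cells, and 3 vascular genes were called.

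Label shares (percentage points, OTV:Malat1 minus Malat1 ASO) moved with at least 1000 UMIs to 3.81 for neurons and -3.12 for oligodendrocytes. Leaving out each animal gave -0.204 to 0.252 for astrocytes, -0.0608 to 0.00148 for Glia, -2.73 to 2.28 for neurons, -1.38 to 3.06 for oligodendrocytes, -0.00211 to 0.0773 for perivascular macrophages and -0.0616 to 0.0239 for vascular cells.

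Reversed single genes were Gfap in astrocytes without doublets (-0.10), Neat1 in microglia with at least 1000 UMIs (0.022), Neat1 without doublets in neurons (-0.27) and perivascular macrophages (-0.040), and Tfrc in neurons with batch 4 left out (0.000918). Leaving out each animal spanned 0 for Neat1 in astrocytes (-0.076 to 0.35), neurons (-0.042 to 0.24) and vascular cells (-0.70 to 0.084), Tfrc in astrocytes (-0.58 to 0.14) and neurons (-0.10 to 0.013), Apoe in astrocytes (-0.39 to 0.020), and Ftl1 (-0.092 to 0.47) and Fkbp5 (-0.95 to 0.10) in oligodendrocytes.

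Perivascular macrophages could not be fitted with at least 1000 UMIs, at least 50 nuclei or majority labels, nor vascular cells with majority labels.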

Other observations

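Malat1 in cluster 18, chosen after its values were seen, is given for its 3 labels with the most nuclei. Its 213 oligodendrocyte-labelled nuclei (67.6% doublets by the authors' call) had a mean Malat1 share of 2.28% after OTV:Malat1 and 8.17% after Malat1 ASO, or 28%. Its 152 microglia-labelled nuclei (75% doublets) had 2.34% in 2 OTV:Malat1 animals and 8.09% in 3 Malat1 ASO animals, or 28.9%, near the oligodendrocyte-labelled nuclei of the cluster and below the 62.8% of the whole microglia label. Its 688 neuron-labelled nuclei (84.2% doublets) had 4.33% and 6.03%, or 71.8%.

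The Glia label, with 1 to 24 nuclei per animal, had Malat1 shares of 4.59%, 4.24% and 2.91% after OTV:Malat1 and 6.78%, 6.56%, 8.66% and 5.4% after Malat1 ASO, without overlap and without a test. Over all nuclei the share was 4.32%, 4.35% and 3.34% against 7.30%, 6.71%, 7.60% and 4.60%, a log2 difference of -0.77 (SE 0.14, unadjusted p = 5.3e-05, edgeR adjusted p = 0.975 over 21375 genes). DESeq2 called the same difference (-0.77, adjusted p = 2.6e-04).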
